A study of Homo sapiens with 8 samples.

Results

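The genes of the proteasome were examined in HepG2, a human hepatocellular carcinoma cell line, after exposure to benzo[a]pyrene (BaP), a polycyclic aromatic hydrocarbon of soot and smoke that activates the aryl hydrocarbon receptor and is metabolised to DNA-reactive products. The genes were those whose current symbol begins with PSMA, PSMB, PSMC, PSMD, PSME, PSMF or PSMG followed by a number, with pseudogenes left out. Of 49733 Ensembl gene IDs in the files, 57 met this rule. Of these, 50 IDs with 47 different symbols code for a proteasome subunit, a chaperone of its assembly, an activator or an inhibitor, and 45 of them had enough counts to be tested. The other 7 are antisense or divergent RNAs and partner proteins of subunits, and are described at the end.

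The proteasome is the protease that degrades ubiquitin-tagged proteins in the cytosol and nucleus. Its 20S core is a barrel of stacked rings: alpha subunits (PSMA genes) form the outer rings and gate the entrance, and beta subunits (PSMB genes) form the inner rings that hold the proteolytic sites. The 19S regulatory particle (PSMC and PSMD genes) sits on the end of the barrel, binds the ubiquitin chain, removes it, and unfolds and feeds in the substrate with a ring of ATPases. Mammalian cells can raise the transcription of all subunits together through NFE2L1, a transcription factor that binds antioxidant-type response elements when proteasome capacity falls short. In cells exposed to interferon gamma, alternative catalytic subunits replace the constitutive ones and form the immunoproteasome, which produces peptides for MHC class I.

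The libraries formed 4 groups of 2, labelled as biological replicates from independent experiments: cells given 2 µM BaP in DMSO for 12 h or 24 h, and cells given the vehicle alone, 0.5% DMSO, for 12 h or 24 h. All were poly-A-selected libraries of the same cell line, and gene counts were RSEM expected counts, which share a read among the transcripts it could come from. The library totals were 8272319 and 12443348 counts in BaP at 12 h, 13363783 and 14048067 in vehicle at 12 h, 2592272 and 16533490 in BaP at 24 h, and 11844661 and 5590972 in vehicle at 24 h (replicate 1 first in each pair). The BaP 24 h pair thus held both the shallowest and the deepest library, and its replicates differed most: over 7299 well-counted genes, the SD of the log2 difference between replicates was 0.32 there, against 0.17 in BaP 12 h, 0.25 in vehicle 12 h and 0.18 in vehicle 24 h. Hepatocyte genes marked every library (ALB at 1969 to 3098 CPM, SERPINA1 at 5827 to 8086 CPM), the leukocyte and fibroblast genes CD3E and DCN were at 0 in all, and PTPRC reached at most 0.188 CPM. CPM values are counts scaled to a common library size with TMM factors.

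Promoter sequence was available from RefSeq for 39 of the 45 tested genes, in 48 windows of 300 bases that run from 250 before to 50 after an annotated start. The windows below belong to the 4 ATPase genes of the 19S base that were higher in BaP cells at 24 h. Capitals mark matches, on either strand, to the antioxidant response element core (TGACNNNGC), the CCAAT box bound by NF-Y, or the core of the aryl hydrocarbon receptor site (GCGTG), build GRCh38.p14.
PSMC4 (chr19:39970915-39971214, plus strand): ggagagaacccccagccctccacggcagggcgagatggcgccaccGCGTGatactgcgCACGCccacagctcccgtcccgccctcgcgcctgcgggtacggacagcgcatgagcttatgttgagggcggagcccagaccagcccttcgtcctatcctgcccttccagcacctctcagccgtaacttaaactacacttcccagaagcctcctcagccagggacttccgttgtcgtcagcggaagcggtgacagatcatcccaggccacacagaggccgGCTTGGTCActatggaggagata
PSMC1 (chr14:90256303-90256602, plus strand): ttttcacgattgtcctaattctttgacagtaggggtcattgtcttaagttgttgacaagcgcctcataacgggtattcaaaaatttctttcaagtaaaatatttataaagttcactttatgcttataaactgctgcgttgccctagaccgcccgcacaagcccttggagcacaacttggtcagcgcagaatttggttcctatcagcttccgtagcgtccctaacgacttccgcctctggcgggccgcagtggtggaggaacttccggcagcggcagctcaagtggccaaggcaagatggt
PSMC2 (chr7:103347393-103347692, plus strand): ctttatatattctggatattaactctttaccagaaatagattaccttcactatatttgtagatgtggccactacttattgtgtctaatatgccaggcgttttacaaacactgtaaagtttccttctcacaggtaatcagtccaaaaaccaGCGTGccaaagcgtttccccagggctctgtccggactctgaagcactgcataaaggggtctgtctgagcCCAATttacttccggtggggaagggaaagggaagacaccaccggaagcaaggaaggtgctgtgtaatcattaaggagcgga
PSMC6 (chr14:52706950-52707249, plus strand): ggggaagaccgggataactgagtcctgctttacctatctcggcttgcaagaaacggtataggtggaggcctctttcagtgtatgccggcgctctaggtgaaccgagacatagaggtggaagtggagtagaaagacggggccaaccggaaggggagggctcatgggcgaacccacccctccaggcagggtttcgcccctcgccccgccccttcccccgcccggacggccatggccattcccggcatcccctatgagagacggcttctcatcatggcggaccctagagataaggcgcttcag
PSMC4 held one antioxidant-element core, which lies just after the start, and a pair of GCGTG cores upstream. PSMC2 held 1 GCGTG and 1 CCAAT box, and PSMC1 and PSMC6 held none of the letters searched. Over all windows of the tested genes, the antioxidant-element core was present in 14 of 48 (29.2%), against 13.3% of 35116 RefSeq promoter windows. CCAAT was present in 18 (37.5%, against 34.6%) and GCGTG in 18 (37.5%, against 36.5%). These matches describe letters and not bound sites.

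At 24 h, 7 of the 45 tested genes were higher in BaP cells and none was lower, at an adjusted p below 0.05 in edgeR's quasi-likelihood test with Benjamini-Hochberg adjustment over all 14746 genes tested. Of all genes tested, 3.11% were higher and 2.2% were lower by the same rule. The 7 were PSMC4, PSMC1, PSMC2 and PSMC6, all ATPases of the 19S base, with PSMD13 of the 19S lid, PSMA7 of the alpha ring and PSMB8 of the immunoproteasome. The median log2 fold change of the 45 genes was 0.40, with a range of -0.16 to 0.73, beside a median of 0.01 over all genes, and 44 of the 45 were above 0 (97.8%, against 50.6% of all genes). At 12 h no proteasome gene passed in either direction in edgeR, where 8.25% of all genes passed. The 12 h median was 0.17 (range -0.15 to 0.41) beside 0.02 over all genes, 6 genes had an unadjusted p below 0.05 (13.3%, against 19.6% of all genes), and DESeq2's Wald test called none. Both BaP libraries lay above both vehicle libraries in 30 of the 45 genes at 24 h (66.7%), against 23.1% of all genes, and in 29 of the 45 at 12 h (64.4%), against 25.4% of all genes. In bulk RNA, a change in the share of cells that express a gene and a change in RNA per cell cannot be told apart.

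Without BaP 24 h replicate 2, 1 gene (PSMC4) remained called at 24 h and the median was 0.12, where 1.09% of all genes were called higher. Without BaP 24 h replicate 1, 30 genes were called and the median was 0.58, where 8.02% of all genes were called higher. Leaving out vehicle 24 h replicate 1 left PSMC4 alone (0.617% of all genes higher), and leaving out vehicle 24 h replicate 2 left none (0.936%). Omitting either BaP 12 h library left 3 genes (PSMC1, PSMC4 and PSMD13), with 2.28% of all genes higher. Those libraries are in neither group of the 24 h comparison but enter the shared fit and the filter on low counts, which then kept 15369 and 15379 genes. DESeq2's Wald test called 4 of the 7 (PSMA7, PSMC1, PSMC4 and PSMD13) and PSMB4, where 2.05% of all genes were called higher. It did not call PSMB8 (adjusted p = 0.11), PSMC2 (0.10) or PSMC6 (0.095).

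**Figure D1:**
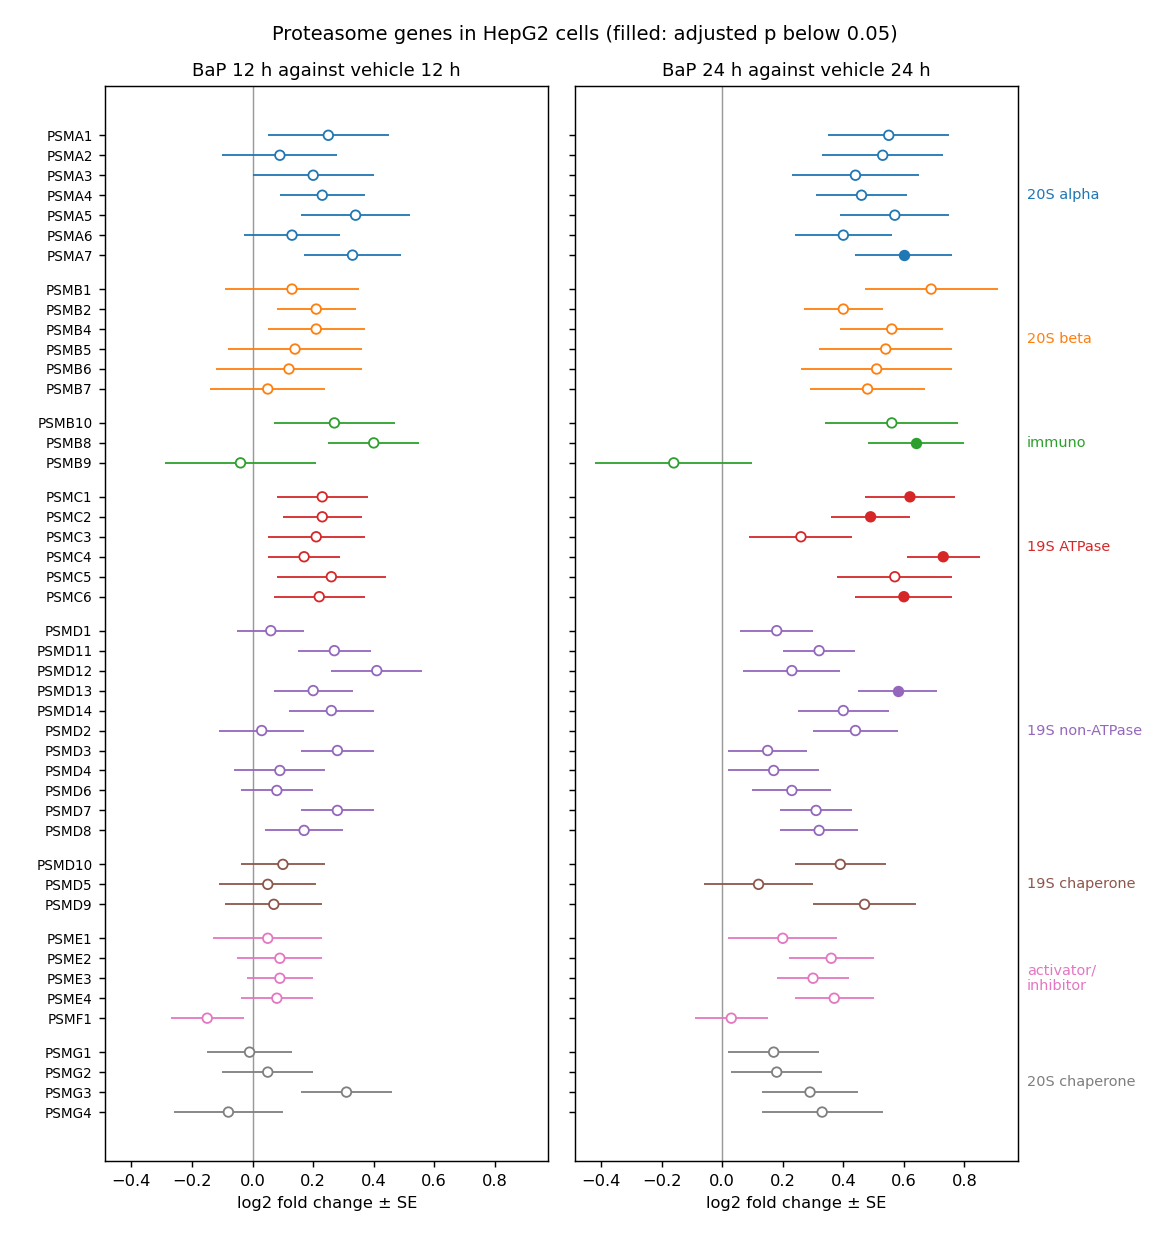
Log2 fold change (x axis) of each tested proteasome gene in BaP against vehicle cells at 12 h (left) and 24 h (right), grouped by role, with the standard error of the edgeR fit as bars. Filled points passed at an adjusted p below 0.05: none at 12 h and 7 at 24 h, of which 4 are 19S ATPases, and at 24 h every point but PSMB9 lies above 0.

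Levels of different genes can be compared only per length, here in TPM, the RSEM estimate of a gene's share of all transcripts. In BaP cells at 24 h the constitutive beta subunits had a median of 285 TPM, from 223 TPM (PSMB2) to 641 TPM (PSMB5), and in vehicle cells at 24 h their median was 214 TPM, from 179 TPM (PSMB7) to 449 TPM (PSMB5). The alpha subunits spread further, from 66.8 TPM (PSMA3) to 438 TPM (PSMA7) in BaP cells at 24 h and from 56.7 TPM (PSMA3) to 300 TPM (PSMA7) in vehicle cells. Subunits that occur in equal numbers in the assembled ring therefore differed 6.56-fold in mRNA level in BaP cells at 24 h and 5.29-fold in vehicle cells.
The ATPases of the 19S base lay lower, from 32.3 TPM (PSMC6) to 146 TPM (PSMC4) in BaP cells at 24 h and from 21.4 TPM (PSMC6) to 91.9 TPM (PSMC4) in vehicle cells. The non-ATPase subunits had the largest spread of the groups: PSMD12 stood at 11.4 TPM and PSMD8 at 224 TPM in BaP cells at 24 h, 19.6-fold apart, against 10.8 TPM and 192 TPM in vehicle cells, 17.7-fold apart. The 3 chaperones of the 19S base ranged from 5.09 TPM (PSMD5) to 22.7 TPM (PSMD9) in BaP cells at 24 h, against 5.13 to 20 TPM in vehicle cells. The 20S assembly chaperones had a median of 34.6 TPM in BaP cells at 24 h, from 21.3 TPM (PSMG2) to 45.1 TPM (PSMG1), against a median of 29.4 TPM in vehicle cells, from 19.8 to 44.7 TPM. At 12 h, PSMB5 was again the highest of the core genes at 527 TPM in BaP cells and 474 TPM in vehicle cells.

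**Figure D2:**
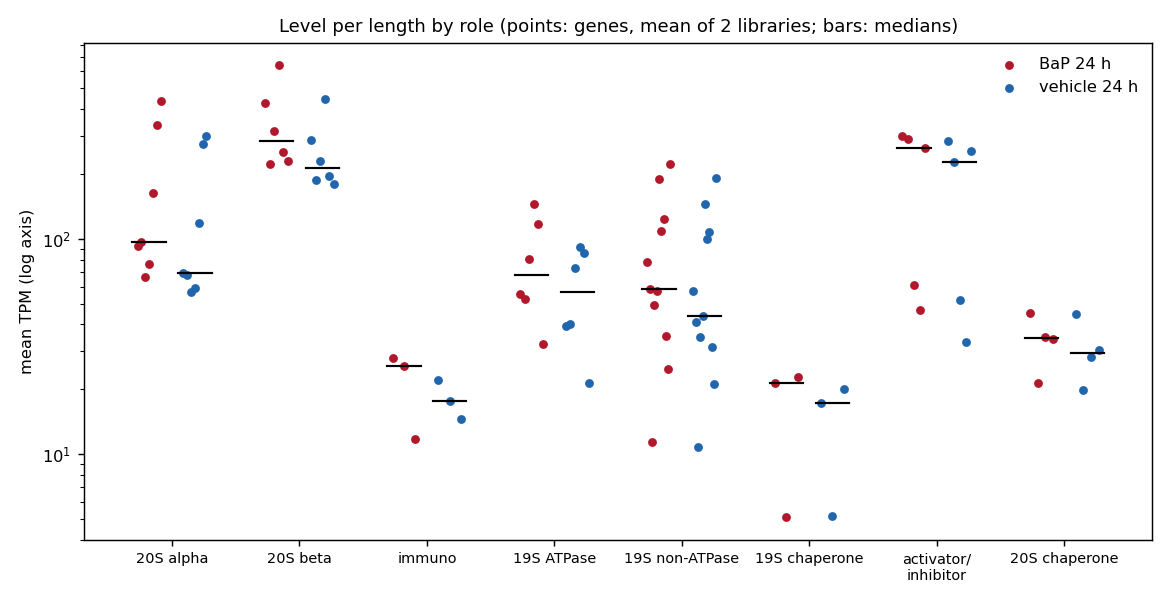
Level per length in TPM (log y axis, mean of 2 libraries) of each tested proteasome gene by role, with BaP 24 h in red and vehicle 24 h in blue, and the median of each role as a black bar. Beta subunits have the highest median of the 20S and 19S structural groups (285 TPM in BaP and 214 TPM in vehicle), and the 3 immunoproteasome genes have medians of 25.7 TPM in BaP and 17.6 TPM in vehicle.

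All 13 tested genes of the constitutive core rings were above 0 at both times, and 1 of them, PSMA7, passed the test at 24 h. PSMA7 (ENSG00000101182), an alpha subunit, had 288 and 443 CPM in BaP cells at 24 h, against 237 and 248 CPM in vehicle cells. Both BaP libraries lay above both vehicle libraries, replicate 2 far more than replicate 1. The log2 fold change was 0.60 ± 0.16 (SE, adjusted p = 0.044). At 12 h PSMA7 had 331 and 314 CPM in BaP cells, against 265 and 249 CPM in vehicle cells, again without overlap, a log2 difference of 0.33 ± 0.16 that did not pass (adjusted p = 0.28).
PSMB1, a structural beta subunit, had the highest log2 fold change of the core at 24 h, 0.69 ± 0.22, and did not pass (adjusted p = 0.11). Its levels were 248 and 449 CPM in BaP cells, against 210 and 227 CPM in vehicle cells, so replicate 2 alone was far above the vehicle range. PSMB4, another structural beta subunit and the one with the smallest p of its ring, had 206 and 319 CPM in BaP cells, against 179 and 180 CPM in vehicle cells (log2 fold change 0.56 ± 0.17, adjusted p = 0.072). DESeq2's Wald test called PSMB4 (adjusted p = 0.038). PSMB2, a non-catalytic beta subunit, had the smallest p of the ring at 12 h, with 184 and 195 CPM in BaP cells and 157 and 170 CPM in vehicle cells (0.21 ± 0.13, adjusted p = 0.42).

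The 3 catalytic activities of the core are carried by PSMB5 (cleavage after hydrophobic residues), PSMB6 (after acidic residues) and PSMB7 (after basic residues). PSMB5 had 426 and 763 CPM in BaP cells at 24 h, against 401 and 423 CPM in vehicle cells, a log2 fold change of 0.54 ± 0.22 that did not pass (adjusted p = 0.19). PSMB6 had 132 and 240 CPM in BaP cells, against 132 and 135 CPM in vehicle cells (0.51 ± 0.25, adjusted p = 0.31). PSMB7 had 147 and 243 CPM in BaP cells, against 138 and 146 CPM in vehicle cells (0.48 ± 0.19, adjusted p = 0.19). In CPM, BaP replicate 1 of each of the 3 lay within or just above the vehicle range and replicate 2 carried the difference. In TPM, replicate 1 had 508 (PSMB5), 211 (PSMB6) and 200 (PSMB7), and replicate 2 had 775, 298 and 257. The vehicle pairs were lower, with 456 and 441, 201 and 192, and 179 and 179 TPM in the same order. Without BaP 24 h replicate 2 the log2 value of PSMB6 was -0.02. At 12 h their log2 fold changes were 0.14, 0.12 and 0.05 in the same order.
Their immunoproteasome counterparts were much less abundant. PSMB8, which takes the place of PSMB5, was one of the 7 called genes (ENSG00000204264): it had 22.9 and 31 CPM in BaP cells at 24 h, against 18.4 and 17.5 CPM in vehicle cells, without overlap (0.64 ± 0.16, adjusted p = 0.030). At 12 h PSMB8 had 27.2 and 25.4 CPM in BaP cells, against 20.4 and 19.6 CPM in vehicle cells, again without overlap, and missed the threshold (0.40 ± 0.15, adjusted p = 0.14). PSMB10, the counterpart of PSMB7, had 21.8 and 38.5 CPM in BaP cells at 24 h, against 20.5 and 24.2 CPM in vehicle cells, which overlap (0.56 ± 0.22, adjusted p = 0.17).
PSMB9, the counterpart of PSMB6, was the exception among all 45 genes at 24 h, with 7.5 and 8.17 CPM in BaP cells, against 7.9 and 10.3 CPM in vehicle cells (log2 fold change -0.16 ± 0.26, adjusted p = 0.79). Per length, PSMB8 was 4.95% and 3.38% of PSMB5 in BaP cells at 24 h, against 4.12% and 3.74% in vehicle cells. PSMB9 was 6.04% and 3.64% of PSMB6 in BaP cells at 24 h, against 6.31% and 8.48% in vehicle cells, and PSMB10 was 11.7% and 12.6% of PSMB7, against 11.8% and 12.9%. These shares overlapped between the groups for PSMB8 and PSMB10, while for PSMB9 both BaP values were below both vehicle values. The closest of these PSMB9 shares, 6.04% and 6.31%, hardly differed. PSMB9 also had few expected counts, 20 in BaP 24 h replicate 1 and 55 in vehicle 24 h replicate 2. At 12 h PSMB8 was 5.03% and 5.33% of PSMB5 in BaP cells, against 4.19% and 4.55% in vehicle cells, and PSMB10 was 14.5% and 13.4% of PSMB7, against 12.1% and 11.7%. Both of these shares were higher in BaP cells at 12 h without overlap, whereas PSMB9 was 3.44% and 5.25% of PSMB6 in BaP cells, against 5.11% and 4.08%, which overlap. None of these shares was tested. The constitutive gene thus exceeded its counterpart in TPM in every 24 h library.

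The 6 ATPases that form the unfolding ring of the 19S base were above 0 at both times, with 4 of 6 called at 24 h. PSMC4 (ENSG00000013275) gave the smallest p of all proteasome genes. It had 168 and 199 CPM in BaP cells at 24 h, against 114 and 109 CPM in vehicle cells, a gap wider than the spread within either pair (log2 fold change 0.73 ± 0.12, adjusted p = 0.0024). PSMC4 was called under every alternative tried except that without vehicle 24 h replicate 2, where the adjusted p was 0.053. At 12 h PSMC4 had 160 and 150 CPM in BaP cells, against 147 and 128 CPM in vehicle cells (0.17 ± 0.12, adjusted p = 0.49).
PSMC1 (ENSG00000100764) had 66.3 and 94.1 CPM in BaP cells at 24 h, against 55.1 and 52.3 CPM in vehicle cells (0.62 ± 0.15, adjusted p = 0.028). PSMC6 (ENSG00000100519), the ATPase with the lowest TPM, had 35.6 and 48.9 CPM in BaP cells, against 28.4 and 29.4 CPM in vehicle cells (0.60 ± 0.16, adjusted p = 0.039). PSMC2 (ENSG00000161057) had 62.8 and 82.7 CPM in BaP cells, against 52.6 and 53.7 CPM in vehicle cells (0.49 ± 0.13, adjusted p = 0.045). In all 3 the groups did not overlap, BaP replicate 1 stood moderately above the vehicle libraries and replicate 2 well above them.
The remaining ATPases did not pass: PSMC5 had 102 and 170 CPM in BaP cells at 24 h, against 94.2 and 93.4 CPM in vehicle cells (0.57 ± 0.19, adjusted p = 0.12). PSMC3 had 91.9 and 140 CPM in BaP cells, against 97.3 and 101 CPM in vehicle cells, with replicate 1 below both vehicle libraries (0.26 ± 0.17, adjusted p = 0.42). At 12 h the log2 fold changes of the 6 ATPases lay within a narrow band, 0.17 to 0.26, and all 6 had both BaP libraries above both vehicle libraries. The smallest p among them at 12 h was that of PSMC2, with 66.3 and 67.8 CPM in BaP cells and 60.1 and 54.2 CPM in vehicle cells (0.23 ± 0.13, adjusted p = 0.35).

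**Figure D3:**
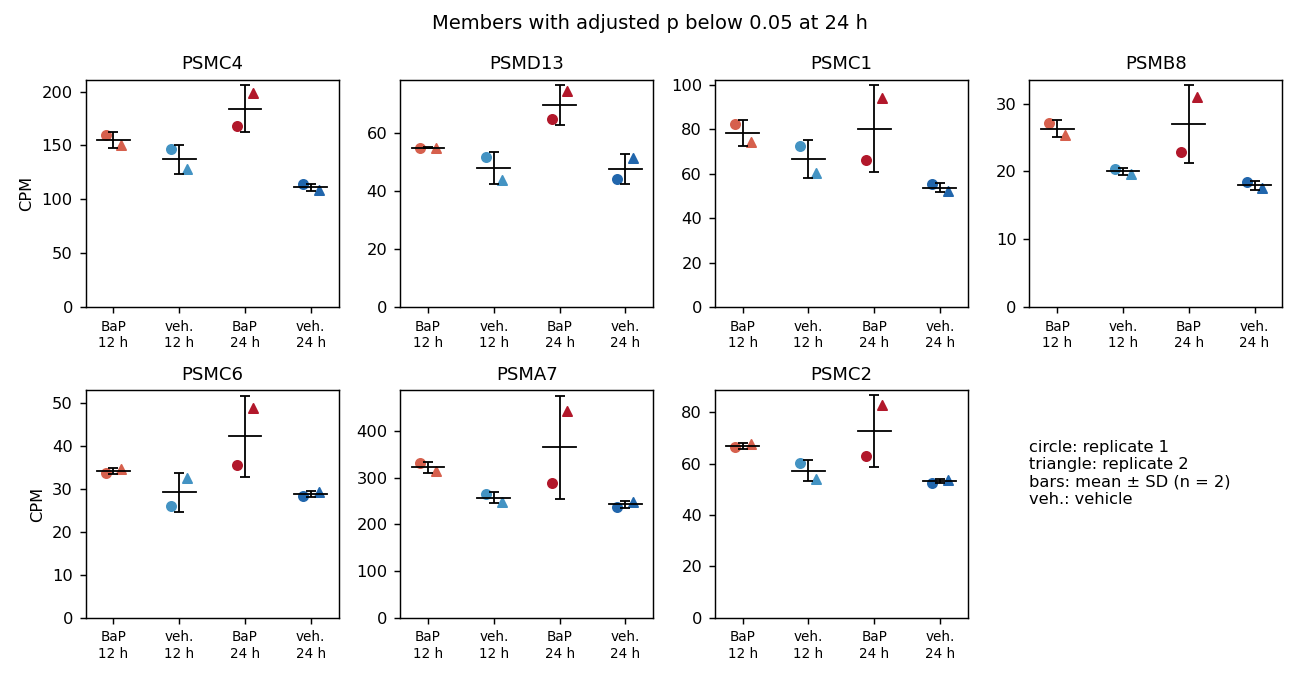
CPM (y axis from 0) of the 7 proteasome genes called at 24 h in all 8 libraries, with BaP beside vehicle at each time, circles for replicate 1, triangles for replicate 2, and the mean ± SD of 2 libraries as bars. At 24 h both BaP values lie above both vehicle values in each panel, with PSMC4 at 168 and 199 CPM against 114 and 109 CPM and the wide BaP bars set by replicate 2.

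The 11 non-ATPase subunits of the 19S particle include its scaffold, its ubiquitin receptors and its deubiquitinase, and all 11 were above 0 at both times. One was called at 24 h: PSMD13 (ENSG00000185627), a lid subunit, had 64.9 and 74.7 CPM in BaP cells, against 44 and 51.4 CPM in vehicle cells (log2 fold change 0.58 ± 0.13, adjusted p = 0.020). The groups did not overlap, and the BaP replicates of this gene differed less than those of the core genes. At 12 h PSMD13 had 55 and 54.7 CPM in BaP cells and 51.9 and 43.9 CPM in vehicle cells (0.20 ± 0.13, adjusted p = 0.46).
PSMD2, the large base subunit that serves as a docking site, had 251 and 314 CPM in BaP cells at 24 h, against 212 and 204 CPM in vehicle cells (0.44 ± 0.14, adjusted p = 0.080). PSMD14, the metalloprotease that removes the ubiquitin chain, had 56.6 and 82.5 CPM in BaP cells, against 54.5 and 54.4 CPM in vehicle cells (0.40 ± 0.15, adjusted p = 0.13). PSMD4, a ubiquitin receptor, had 97.2 and 142 CPM in BaP cells, against 109 and 108 CPM in vehicle cells, so its replicates fell on either side of the vehicle pair (0.17 ± 0.15, adjusted p = 0.59).
PSMD12, a lid subunit, showed the highest 12 h value of all 45 genes. It had 42.3 and 45.3 CPM in BaP cells at 12 h, against 29.4 and 36.6 CPM in vehicle cells, without overlap (0.41 ± 0.15, unadjusted p = 0.012, adjusted p = 0.11). At 24 h its levels overlapped, with 30.8 and 37.5 CPM in BaP cells and 32.5 and 26.9 CPM in vehicle cells (0.23 ± 0.16, adjusted p = 0.46). PSMD11, PSMD7 and PSMD3, also of the lid, had unadjusted p-values of 0.034, 0.030 and 0.036 at 12 h, with log2 fold changes of 0.27, 0.28 and 0.28. Both PSMD12 and PSMD3 had a smaller fold change at 24 h than at 12 h, and neither difference between times passed (adjusted p = 0.85 and 0.87).

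No assembly chaperone with a PSMD or PSMG symbol was called at either time. Of the 3 chaperones of the 19S base, PSMD9 had 31.1 and 39.3 CPM in BaP cells at 24 h, against 26.2 and 26.3 CPM in vehicle cells (0.47 ± 0.17, adjusted p = 0.13). PSMD10 (gankyrin, a binding partner of PSMC4 and a factor overexpressed in liver cancer) had 24.8 and 25.8 CPM in BaP cells at 24 h, against 20.7 and 17.6 CPM in vehicle cells (0.39 ± 0.15, adjusted p = 0.17). At 12 h PSMD10 had the smallest p of these 3, with a log2 fold change of 0.10 ± 0.14 (adjusted p = 0.80).
The 20S assembly chaperones PSMG1, PSMG2, PSMG3 and PSMG4, which build the alpha ring as pairs, ran from 0.17 to 0.33 at 24 h and from -0.08 to 0.31 at 12 h. PSMG3 had the smallest p at 12 h, with 28.3 and 25.8 CPM in BaP cells, against 23.5 and 20 CPM in vehicle cells (0.31 ± 0.15, adjusted p = 0.25). At 24 h PSMG3 had 23 and 27.1 CPM in BaP cells, against 20.1 and 22.1 CPM in vehicle cells (0.29 ± 0.16, adjusted p = 0.33).

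The activators cap the core in place of the 19S particle. PSME4, the large nuclear activator PA200, which is linked to DNA repair and histone turnover, had 172 and 174 CPM in BaP cells at 24 h, against 134 and 135 CPM in vehicle cells. Its replicates were closer than those of most other genes of the complex, and the difference still missed the threshold (0.37 ± 0.13, unadjusted p = 0.0097, adjusted p = 0.11). PSME3, the nuclear activator that degrades some proteins without ubiquitin, had 174 and 187 CPM in BaP cells, against 154 and 140 CPM in vehicle cells (0.30 ± 0.12, adjusted p = 0.16).
PSME1 and PSME2, the subunits of the interferon-induced cytosolic activator, had log2 fold changes of 0.20 ± 0.18 and 0.36 ± 0.14 at 24 h (adjusted p = 0.61 and 0.17). PSMF1, an inhibitor of the isolated core, had 282 and 259 CPM in BaP cells at 24 h, against 270 and 259 CPM in vehicle cells (0.03 ± 0.12, adjusted p = 0.93). At 12 h PSMF1 had the smallest p of this group and its BaP libraries were below both vehicle libraries, with 240 and 241 CPM against 266 and 266 CPM (-0.15 ± 0.12, adjusted p = 0.56).

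Summed over the 50 IDs in a role, 45 of them tested, expression was 5680 and 5477 CPM in BaP cells at 12 h. It was 5194 and 4862 CPM in vehicle cells. At 24 h the sums were 5287 and 7390 CPM in BaP cells, against 4784 and 4845 CPM in vehicle cells, and BaP replicate 2 stood at 1.53 times the vehicle mean. The spread at 24 h was therefore set by the BaP pair, in which replicate 2 was above replicate 1 in 42 of the 45 genes. Over all 14746 genes tested it was so in 7468.
The median log2 value against the vehicle mean was 0.05 in replicate 1 and 0.83 in replicate 2 for the 13 core ring genes. For the 6 ATPases these medians were 0.27 and 0.78, and for the 11 non-ATPase subunits 0.12 and 0.42. Over all genes they were -0.02 and 0.01. Replicate 2 minus replicate 1 ranged from 0.43 to 0.87 for core ring genes, from 0.24 to 0.73 for ATPases and from -0.25 to 0.54 for non-ATPase subunits. These ranges overlapped, and the difference between roles was not tested. The alpha ring had 1.08 and 1.72 times the vehicle sum in CPM, and the constitutive beta ring 1.07 and 1.81 times. In CPM, BaP replicate 1 alone thus showed a core close to that of vehicle cells. In TPM, which takes no TMM factor, the alpha sums were 1114 and 1431 in BaP, against 955 and 941 in vehicle. The beta sums were 1783 and 2404, against 1553 and 1510, so replicate 1 stood further above vehicle than in CPM. In the 12 h BaP pair the median log2 values of the core in CPM were 0.22 and 0.13.

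**Figure D4:**
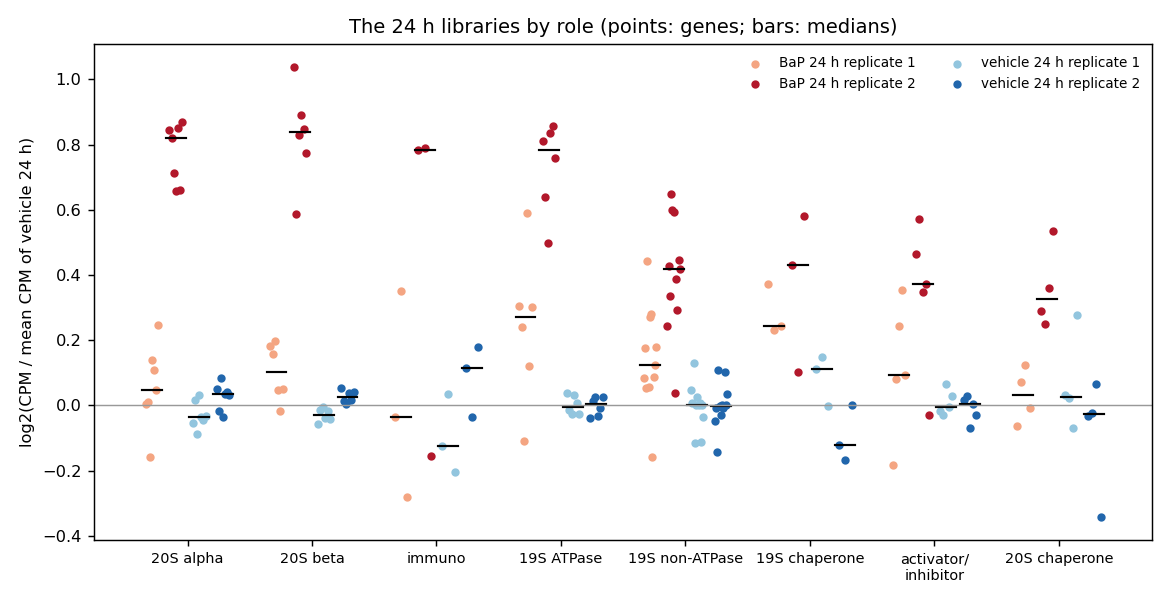
Log2 of CPM over the mean CPM of the vehicle 24 h libraries (y axis) for each tested proteasome gene in the 4 libraries of 24 h, by role, with medians as black bars. BaP replicate 2 (dark red) has medians near 0.8 in both core rings, where BaP replicate 1 (light red) has medians of 0.05 and 0.10 and the vehicle libraries (blue) lie around 0.

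The same pair of BaP libraries also differed by assigned transcript length over all genes, and most core subunits have short mRNAs. The assigned length may not be that of the transcript with most counts. Among genes with at least 16 CPM, the median log2 difference of BaP 24 h replicate 2 minus replicate 1 was 0.46 for transcripts up to 1000 bases, 0.29 up to 1500, 0.11 up to 2500, -0.02 up to 4000 and -0.10 above. The proteasome genes in the same classes had 0.63, 0.54, 0.28, 0.36 and 0.37, over 11, 11, 11, 6 and 4 genes. The vehicle 24 h pair stayed between 0.00 and 0.04 in every class. The 12 h pairs also differed by length, in the other direction: BaP 12 h had -0.14 in the shortest class and 0.08 in the longest, and vehicle 12 h had -0.14 and 0.05.
The log2 fold change of BaP against vehicle at 24 h likewise ran from a median of 0.29 for all genes up to 1000 bases to -0.10 for all genes above 4000 bases. The proteasome genes had medians of 0.48, 0.53, 0.32, 0.42 and 0.42 in the 5 classes, above the median of all genes in each. The classes up to 4000 bases and above held only 6 and 4 of them. Assigned lengths also did not always match the levels, as more length gives more CPM per TPM. In BaP cells at 12 h, PSMA5, assigned 3729 bases, had a mean of 111 CPM and 150 TPM. PSMB7, assigned 980 bases, had 138 CPM and 185 TPM. PSMD7, assigned 1670 bases, had 134 CPM and 27.7 TPM. Some proteasome genes may thus sit in the wrong class. At 12 h the medians of the proteasome genes were 0.13, 0.13, 0.21, 0.15 and 0.23, where all genes had 0.08, 0.04, 0.02, 0.02 and -0.04. The part of library depth and of transcript length in the 24 h fold changes was not tested.

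**Figure D5:**
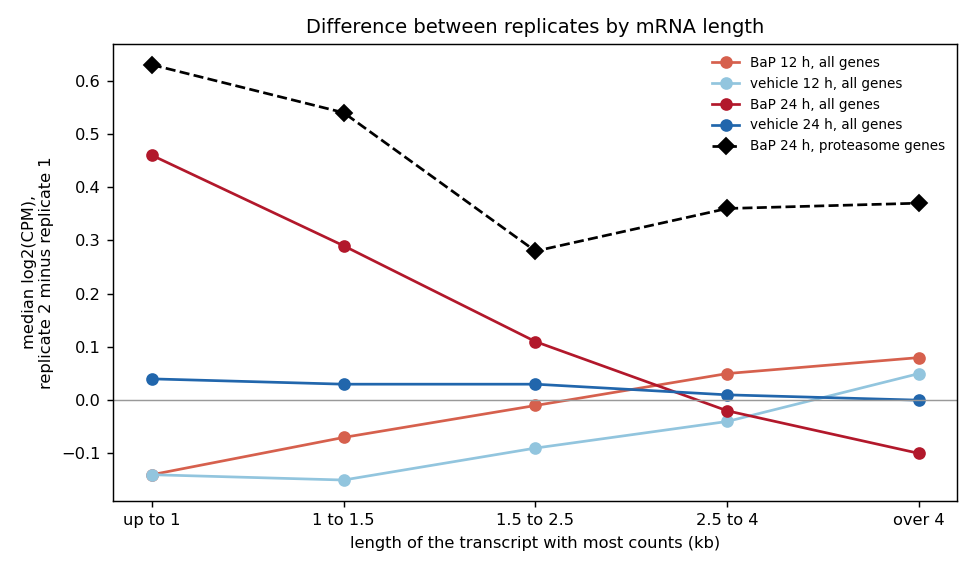
Median log2 difference in CPM between replicate 2 and replicate 1 (y axis) by assigned transcript length (x axis, kb). Lines show all genes in each group, and black diamonds show proteasome genes in BaP 24 h. The assigned length may not be that of the transcript with most counts. In BaP 24 h the median of all genes falls with length, 0.46 in the shortest class and -0.10 in the longest, with the proteasome genes above it in all 5 classes, while in both 12 h groups the line goes the other way and in vehicle 24 h it is nearly flat.

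The BaP effect at 24 h minus that at 12 h was positive for 41 of the 45 genes (91.1%, against 51.5% of all genes). The median was 0.25, beside 0.01 over all genes, but no proteasome gene passed in edgeR, where 0.543% of all genes did. At an unadjusted p below 0.05 there were 2 genes (4.44%, against 9.51% of all genes), PSMC4 (0.55 ± 0.17, adjusted p = 0.23) and PSMD2 (0.42 ± 0.19, adjusted p = 0.52), and DESeq2's Wald test called none. Without BaP 24 h replicate 2 the median was -0.06. The direction of that median thus depended on this replicate.
Between the vehicle groups, 24 h against 12 h, no proteasome gene passed in edgeR, where 3.28% of all genes did. The median was -0.02, 6 genes had an unadjusted p below 0.05 (13.3%, against 16.4% of all genes), and DESeq2's Wald test called 1 gene, PSME3, as lower at 24 h. PSMC4 itself had 114 and 109 CPM in vehicle cells at 24 h, against 147 and 128 CPM in vehicle cells at 12 h, a log2 difference of -0.30 (unadjusted p = 0.027, adjusted p = 0.23). None of the 6 ATPases was above 0 in this comparison, and their median was -0.11. PSMC1 was also at -0.30, PSMC2 at -0.11, PSMC5 at -0.10, and PSMC3 and PSMC6 at -0.02. For PSMC4 and PSMC1 the BaP 24 h contrast was therefore read against a vehicle pair that lay lower than at 12 h, though not past the threshold. For PSMC3 and PSMC6 the vehicle groups hardly differed.

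Genes that work with the proteasome but do not carry its symbols were counted for comparison. Of 25 partners (ubiquitin genes, shuttle factors, extra subunits, deubiquitinases and regulators), 3 were higher at 12 h and 2 at 24 h, and none was lower at either time, where 3.41% and 3.11% of all genes were higher. SQSTM1, the p62 autophagy receptor that also binds ubiquitin chains, had 617 and 637 CPM in BaP cells at 12 h, against 221 and 229 CPM in vehicle cells (1.48 ± 0.15, adjusted p = 6.4e-06). At 24 h it had 444 and 542 CPM in BaP cells, against 220 and 284 CPM in vehicle cells (0.98 ± 0.15, adjusted p = 0.00094). Without vehicle 24 h replicate 1 that adjusted p was 0.06. POMP, the chaperone that matures the beta ring, had 61.9 and 86 CPM in BaP cells at 24 h, against 45.6 and 40.3 CPM in vehicle cells (0.82 ± 0.15, adjusted p = 0.0043), where leaving out BaP 24 h replicate 2 gave an adjusted p of 0.14 and leaving out vehicle 24 h replicate 2 one of 0.077.
ADRM1, a ubiquitin receptor of the 19S base that the symbol rule does not catch, had 331 and 314 CPM in BaP cells at 12 h, against 249 and 213 CPM in vehicle cells (0.48 ± 0.12, adjusted p = 0.020), a call lost on omitting either BaP 12 h library or vehicle 12 h replicate 2 (adjusted p = 0.13 to 0.24). ZFAND5, a stress-induced activator of the 26S complex, had 68.2 and 72.3 CPM in BaP cells at 12 h, against 43.3 and 46.5 CPM in vehicle cells (0.65 ± 0.12, adjusted p = 0.0018). Of 12 genes that supply peptides to MHC class I, 1 was higher at 12 h, none was lower, and none passed at 24 h, where 5 had an unadjusted p below 0.05 (41.7%, against 20% of all genes). The one was TAP1, the peptide transporter whose gene lies beside PSMB8 and PSMB9, with 72.7 and 71.1 CPM in BaP cells at 12 h, against 44.2 and 40.5 CPM in vehicle cells (0.76 ± 0.12, adjusted p = 0.00041). The partners' median log2 fold change was 0.14 at 24 h and that of the MHC class I genes 0.12, below the 0.40 of the proteasome genes, though this difference between lists was not tested.

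The mix of transcripts was tested for 22 proteasome genes with more than 1 transcript that held at least 10% of the gene's counts. By edgeR's gene-level test of transcript usage, 0.307% of all genes changed at 12 h and 0.906% at 24 h, and none of the 22 did. At an unadjusted p below 0.05 there were 0 of the 22 at 12 h and 2 at 24 h. The smallest p at 24 h was that of PSMG3 (unadjusted p = 0.027, adjusted p = 0.38): its transcript PSMG3-203 made up 74.7% and 76.9% of its counts in BaP cells, against 63% and 58% in vehicle cells. PSMD14 followed (unadjusted p = 0.036, adjusted p = 0.40), with PSMD14-201 at 42.5% and 23.2% in BaP cells and 52.3% and 42.5% in vehicle cells. Of the called genes, PSMB8 and PSMD13 entered this test, and neither passed at 24 h (adjusted p = 0.65 and 0.88).

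Of the 5 IDs in a role that were not tested, PSMA8, a testis-type alpha subunit, and PSMB11, the catalytic subunit of the thymus, had no count in any library, and a count of 0 allows up to 0.181 to 1.16 CPM depending on the library (counting error only). The other untested IDs were second entries of PSMG2 with 4 counts in all libraries, of PSMF1 with none, and of PSMB5 with 9.44. PSMB3 matched no ID and was not analysed here. The 34 pseudogenes left out included 18 with a count, at most 89.36 over the 8 libraries (PSMC1P5), and how RSEM shared reads between them and their parent genes cannot be seen in the totals.
Among the 7 rule matches that are no proteasome part, PSME3IP1 had 55.9 and 62 CPM in BaP cells at 24 h, against 55.7 and 52.7 CPM in vehicle cells (0.13 ± 0.12, adjusted p = 0.60). PSMC3IP, a partner in meiotic recombination, had 9.48 and 8.08 CPM in BaP cells at 24 h, against 4.95 and 8.83 CPM in vehicle cells (0.39 ± 0.31, adjusted p = 0.52). The remaining 5 antisense and divergent RNAs stayed at or below 2.32 CPM in every library.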

How the data were processed

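Poly-A RNA libraries of HepG2 cells were read as deposited. Per the submitters' processing notes, the tools were Bowtie 0.12.7, RSEM 1.1.7 and edgeR. No source used here gives the genome build, and the gene models are named as Ensembl release 58. The authors deposited RSEM expected counts per gene and per transcript, a transcript fraction, and posterior mean counts. The deposited fraction was scaled to TPM.

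Gene IDs were named through GENCODE 29 and NCBI's table: 42296 of 49733 (85.0%), holding 96.9% of counts, 1370 of them through transcript IDs. Expected counts were rounded and filtered by edgeR's filterByExpr (minimum count 10, minimum total 15), which left 14746 genes. All 8 libraries entered edgeR 4.0.16 (R 4.3.3, limma 3.58.1), with TMM scaling, 1 mean per group and the robust quasi-likelihood test, two-sided. P-values were adjusted by Benjamini-Hochberg over all genes, with a threshold of 0.05. The SE is the log2 fold change divided by the root of F. The script was tested on simulated data. DESeq2 1.42.0 was an alternative.

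The members, roles, lists and tests were chosen with earlier results of these data known. Named with values were members past the threshold, the smallest p of each role, and the catalytic genes, plus genes of the 2 other lists that passed. PSMB1, PSMC3, PSMC5, PSMD2, PSMD4, PSMD14, PSMD3, PSMD7, PSMD10, PSMD11, PSME1, PSME2 and PSME3 were added after their values were seen.

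The labels describe the biological replicates as independent experiments but do not tie a replicate number to 1 experiment across groups, so numbers were not taken to pair libraries. With 2 libraries a group, the p-values of the main fit rest on a spread between replicate libraries that was estimated over all groups together and drew on all genes tested. They do not measure the spread within 1 group alone.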

Additional observations from a re-analysis of the deposited data

Results flagged for a closer look

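A second Ensembl entry of PSMB5, outside the tests because of its low counts, held 9.44 expected counts in BaP 24 h replicate 1 and 0 in the other 7 libraries, the vehicle 24 h pair included. It is listed because the comparisons did not use it. Both entries are named PSMB5 and were given the same position, and the main entry held 1135.56 counts in that library. Expected counts share reads among entries, so the 9.44 cannot be told apart from reads of the main entry.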

How the results depend on the processing

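No proteasome gene was called lower in BaP cells at 12 h or 24 h under any alternative run. At 24 h, where 7 genes were called, the count was 19 with no filter on low counts, 1 in a fit to the 4 libraries of that comparison alone, and 0 to 30 when 1 library was left out. DESeq2's Wald test gave 5, 4 of them shared with the 7, and both scalings gave the same 7. The median of 0.40 ran from 0.12 to 0.58 with 1 library left out and from 0.37 to 0.40 otherwise.

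At 12 h the count of 0 was 0 to 3 with 1 library left out (PSMA5 and PSMD12 without BaP 24 h replicate 1, and these with PSMA7 without replicate 2), and the median of 0.17 ran from 0.10 to 0.24. The difference between times gave 0 genes under every alternative that kept all 8 libraries. It did not stay at 0 without BaP 24 h replicate 1, a fit that leaves 1 library in that group. In the vehicle comparison, 1 gene was lower with no filter (PSMD2), 3 in the fit to its own libraries (PSMD1, PSMD2 and PSME3), 1 with DESeq2 (PSME3), and 0 to 3 with 1 library left out. Its median was -0.06 with no filter and -0.09 to -0.01 with 1 library left out. Transcript usage at 24 h called 1 gene with no minimum share (PSMD3) and 0 to 3 with 1 library left out.

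With 1 library left out, log2 values changed sign at 12 h for PSMB6 (-0.03 to 0.27), PSMB7 (-0.09 to 0.19), PSMB9 (-0.32 to 0.28), PSMD1 (-0.03 to 0.14), PSMD2 (-0.13 to 0.18), PSMD4 (-0.07 to 0.26), PSMD5 (-0.04 to 0.13), PSMD9 (-0.17 to 0.33), PSME1 (-0.11 to 0.18), PSME2 (-0.00 to 0.17), PSME4 (-0.07 to 0.19), PSMG1 (-0.06 to 0.03) and PSMG2 (-0.10 to 0.20). At 24 h they did so for PSMA3 (-0.15 to 0.72), PSMB6 (-0.02 to 0.84), PSMB10 (-0.02 to 0.80), PSMC3 (-0.11 to 0.50), PSMD4 (-0.16 to 0.38), PSME1 (-0.19 to 0.46), PSMG1 (-0.07 to 0.28) and PSMG4 (-0.05 to 0.70), all of them without BaP 24 h replicate 2. PSMB9 (-0.37 to 0.01), PSMD5 (-0.00 to 0.31) and PSMF1 (-0.03 to 0.09) did so at 24 h with other libraries left out. The causes were not tested. BaP 24 h replicate 1 was the shallowest library, with 2592272 counts.

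With replicate number as a block, 5 genes were called at 24 h, all among the 7, where 2.92% of all genes were called higher. PSMA7 and PSMC2 were not called in that edgeR fit (adjusted p = 0.065 and 0.066). The replicate differences correlated over 7299 genes with r = 0.42 between BaP and vehicle at 12 h and 0.064 at 24 h, -0.24 between BaP 12 h and BaP 24 h, -0.039 between the vehicle groups, -0.074 between vehicle 12 h and BaP 24 h, and 0.017 between BaP 12 h and vehicle 24 h.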
